A study of Mus musculus with 14 samples.

Results

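The small leucine-rich proteoglycans are secreted matrix proteins with a core of leucine-rich repeats, and 10 genes of the family were followed here: Dcn, Bgn, Lum, Fmod, Ogn, Kera, Aspn, Omd, Prelp and Podn. They were chosen by symbol, as the probe sets that the array annotation assigns to that gene alone, and each of the 10 had 1 such probe set, out of 19938 genes measured. RNA came from the plantaris, a calf muscle, of male C57BL/6J mice aged 25 months that underwent synergist ablation, an operation that takes out the larger calf muscles, gastrocnemius and soleus, so that the plantaris carries their load. Muscles of days 1, 3, 5, 7, 10 and 14 of overload and of day 0, the starting point, were hybridised to Affymetrix Mouse Gene 1.0 ST arrays, 2 per day, of which 1 held a pool of left and 1 a pool of right muscles from 6 animals. All 14 arrays are of old mice and none is labelled as sham-operated, so load and surgery cannot be told apart, and neither can the day and the animals of that day. Values are log2 signals, so a difference of 1 is a 2-fold change, and no detection call stands behind them.

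Members of this family bind the surface of collagen fibrils and limit how fibrils grow and fuse, and several hold growth factors such as TGF-beta in the matrix. In muscle they are made mainly by fibroblasts of the connective tissue and by tendon cells rather than by the fibres. Decorin, biglycan and asporin form one class of the family, fibromodulin, lumican, keratocan, PRELP and osteomodulin a second, and osteoglycin and podocan belong to further classes. In whole muscle, fewer cells of a type and less RNA per cell cannot be told apart.

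The family dipped on day 1 and then parted into different courses. On day 1, 9 of the 10 genes were lower than on day 0 (22.6% of all genes were called lower) and Bgn was the 1 gene called higher (22.3% of all genes were called higher). Biglycan, asporin and osteoglycin then climbed to a plateau by days 7 to 10. Lumican, keratocan, fibromodulin, PRELP and podocan had their highest mean signals on day 14. So did decorin, which stayed close to its day 0 signal. Osteomodulin was lower than on day 0 through day 10. Calls are adjusted p values under 0.05 from limma, fitted across all genes with n = 2 arrays per day, and differences are given with their standard error. The left and right pools of a day may come from the same animals, so p-values measure only the spread between sides and arrays. All 10 genes changed with day by the F test over all days, with adjusted p between 3.4e-10 for Aspn and 0.00421 for Dcn, as did 79.5% of all genes.

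**Figure D1:**
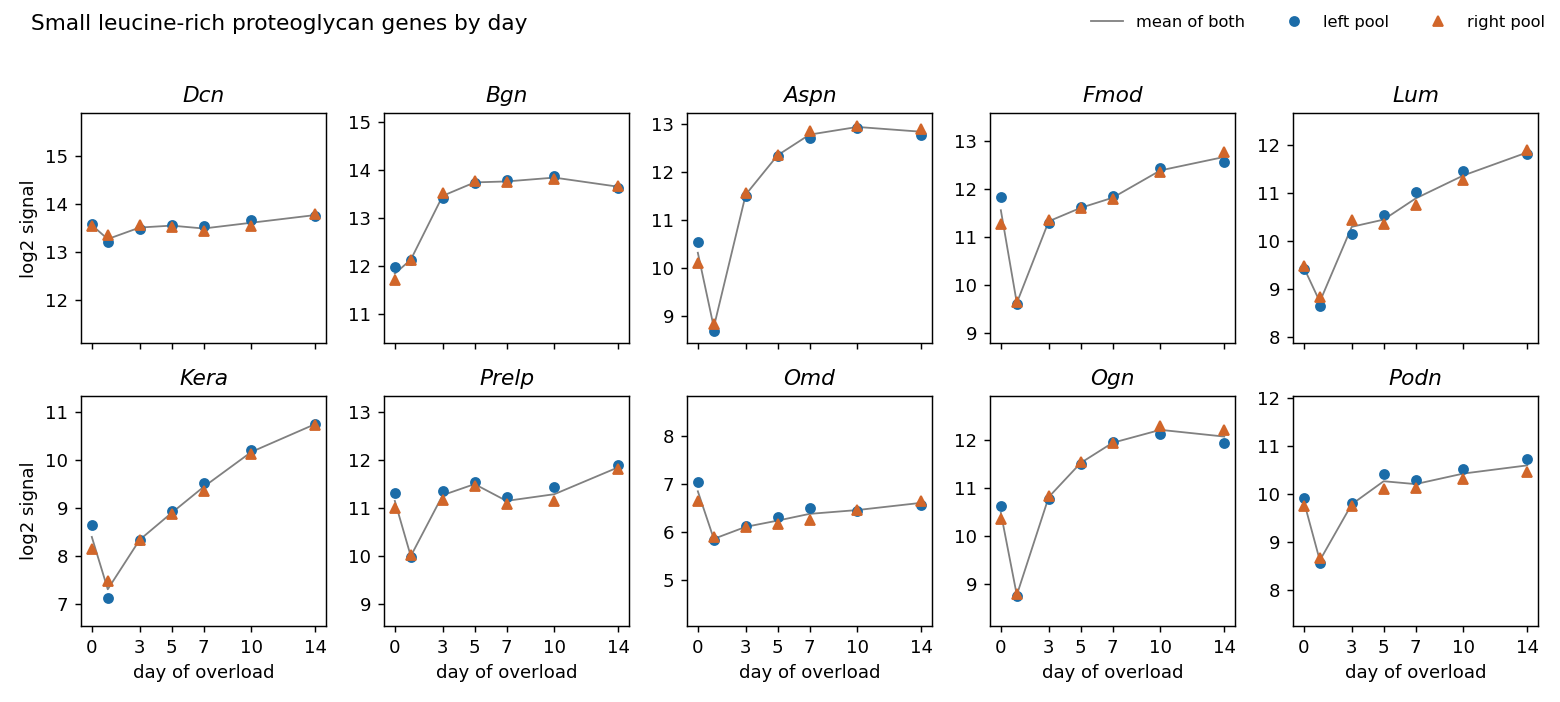
Log2 signal (vertical axis, each panel spanning the same number of log2 units) against day of overload for the 10 genes; circles are left pools, triangles right pools and the line their mean. Aspn stood at 8.69 and 8.83 on day 1 and at 12.91 and 12.95 on day 10, while Dcn stayed between 13.20 and 13.79 on all arrays.

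Decorin, the founding member, carries a single chondroitin or dermatan sulfate chain and binds collagen I and TGF-beta. Dcn gave log2 signals on the left and right arrays of 13.58 and 13.54 on day 0, 13.20 and 13.35 on day 1, 13.47 and 13.56 on day 3, and 13.57 and 13.53 on day 5. It gave 13.55 and 13.43 on day 7, 13.66 and 13.55 on day 10, and 13.75 and 13.79 on day 14. Both arrays of day 1 lay below, and both of day 14 above, every array of day 0. The fall on day 1 was 0.29 in size (-0.29 ± 0.08, adjusted p = 0.0101) and the difference on day 14 was 0.21 ± 0.08 (adjusted p = 0.0438). Both calls were thin. The day 1 call ended without the left pool of day 1 (-0.21, adjusted p = 0.0851) or without the left pool of day 0 (-0.27, adjusted p = 0.052). The day 14 call ended without either pool of day 0, 5, 10 or 14, with adjusted p between 0.0514 and 0.162, and with array medians made equal (0.09, adjusted p = 0.31). On days 3, 5, 7 and 10 Dcn was not called. The 95% intervals of its differences from day 0 all lay between -0.24 and 0.22, well under a 2-fold change in signal either way. The highest value on any array was 14.79, and whether signals as high as those of Dcn follow RNA in full was not tested. With array medians made equal, Dcn was 0.21 below day 0 on day 7 (adjusted p = 0.024).

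Biglycan is the closest relative of decorin in the family, usually carries a pair of such chains and binds collagen VI and the sarcoglycans of the fibre membrane. Bgn gave 11.98 and 11.70 on day 0, 12.12 and 12.13 on day 1, 13.41 and 13.51 on day 3, 13.72 and 13.76 on day 5, 13.78 and 13.75 on day 7, 13.87 and 13.81 on day 10, and 13.62 and 13.67 on day 14. All arrays from day 3 on stood above both of day 1 and both of day 0. The difference from day 0 was 1.62 ± 0.09 on day 3 (3.07-fold, adjusted p = 1.9e-08) and 2.0 ± 0.09 on day 10 (4.0-fold, adjusted p = 3.5e-09). By day 3 Bgn stood at 81% of its largest rise on the log2 scale. Its small rise on day 1 (0.29 ± 0.09, adjusted p = 0.0178) lost its call without the right pool of day 0 (0.15, adjusted p = 0.192) and without the left (0.30, adjusted p = 0.0514) or right pool of day 1 (0.28, adjusted p = 0.0692).

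Asporin, which carries no such chain and has a run of aspartate near its start, binds collagen and TGF-beta. Aspn gave 10.53 and 10.09 on day 0, 8.69 and 8.83 on day 1, 11.49 and 11.55 on day 3, 12.33 and 12.34 on day 5, 12.71 and 12.84 on day 7, 12.91 and 12.95 on day 10, and 12.76 and 12.89 on day 14. It fell by 1.54 on day 1 (-1.54 ± 0.12, 2.92-fold, adjusted p = 5.4e-07). Between day 1 and day 3 it rose by 2.76 ± 0.12 (6.76-fold, adjusted p = 3.3e-08), which was the largest rise among the 10 genes in that interval. It was 2.62 ± 0.12 above day 0 on day 10 (6.15-fold, adjusted p = 4.7e-09), a difference at the 99.4th percentile of all genes that day.

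Fibromodulin and lumican carry keratan sulfate and share a binding region on collagen I. Fmod gave 11.84 and 11.27 on day 0, 9.60 and 9.65 on day 1, 11.29 and 11.36 on day 3, 11.62 and 11.61 on day 5, 11.85 and 11.79 on day 7, 12.43 and 12.36 on day 10, and 12.57 and 12.77 on day 14. Its fall on day 1 was the deepest of the 10 genes (-1.93 ± 0.14, 3.81-fold, adjusted p = 3.4e-07). Fmod was not called on days 3, 5 and 7, when the arrays lay among or near the 2 of day 0, which differed by 0.58. It rose by 0.84 ± 0.14 on day 10 (adjusted p = 2.8e-04) and 1.12 ± 0.14 on day 14 (2.17-fold, adjusted p = 3.6e-05). Without the left pool of day 0 Fmod was also called higher on day 5 (0.35, adjusted p = 0.0118) and day 7 (0.55, adjusted p = 6.7e-04), and without the right pool of day 0 it was called lower on day 3 (-0.52, adjusted p = 0.0012).

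Lum gave 9.42 and 9.49 on day 0, 8.65 and 8.83 on day 1, 10.14 and 10.45 on day 3, 10.54 and 10.36 on day 5, 11.02 and 10.76 on day 7, 11.47 and 11.27 on day 10, and 11.81 and 11.89 on day 14. Its arrays of day 14 were its highest and those of day 1 its lowest. It fell on day 1 (-0.71 ± 0.13, adjusted p = 4.7e-04), was 0.84 ± 0.13 above day 0 on day 3 (adjusted p = 1.0e-04) and reached 2.39 ± 0.13 on day 14 (5.26-fold, adjusted p = 2.3e-08). On day 3 it stood at 35.1% of that final rise, against 81% for Bgn.

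Keratocan is best known from the cornea, where it keeps collagen fibrils evenly spaced, and is also made in tendon. Kera gave 8.64 and 8.14 on day 0, 7.11 and 7.48 on day 1, 8.33 and 8.33 on day 3, 8.93 and 8.86 on day 5, 9.51 and 9.35 on day 7, 10.21 and 10.12 on day 10, and 10.75 and 10.73 on day 14. From day 5 on each day's arrays lay above all arrays of the days before. It fell on day 1 (-1.10 ± 0.15, adjusted p = 4.9e-05) and rose by 0.50 ± 0.15 on day 5, 1.04 ± 0.15 on day 7, 1.77 ± 0.15 on day 10 and 2.35 ± 0.15 on day 14 (5.09-fold, adjusted p = 9.0e-08). Of these, the rise on day 5 was no longer called with the right pool of day 0 left out (0.25, adjusted p = 0.137), without the left pool of day 5 (0.47, adjusted p = 0.0563) and after quantile normalization (0.35, adjusted p = 0.0554).

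PRELP binds heparan sulfate and collagen and is thought to tether basement membranes to the tissue beneath. Prelp gave 11.30 and 10.99 on day 0, 9.97 and 10.01 on day 1, 11.35 and 11.16 on day 3, 11.53 and 11.45 on day 5, 11.22 and 11.07 on day 7, 11.43 and 11.14 on day 10, and 11.89 and 11.80 on day 14. The arrays of day 1 were its lowest and those of day 14 its highest, with those of days 3, 7 and 10 around day 0. It fell on day 1 (-1.15 ± 0.12, adjusted p = 6.7e-06) and rose on day 14 (0.70 ± 0.12, adjusted p = 4.4e-04). The rise on day 5 (0.34 ± 0.12, adjusted p = 0.027) lost its call without either pool of day 5 (left out left, 0.30, adjusted p = 0.123, and left out right, 0.39, adjusted p = 0.0559) and without the right pool of day 0 (0.19, adjusted p = 0.254). It was also not called with array medians made equal (0.22, adjusted p = 0.112) or on the 4 arrays of the comparison alone (0.34, adjusted p = 0.0518).

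Osteomodulin, also called osteoadherin, is a member known mainly from bone and teeth. Omd gave the lowest signals of the probe sets here, 7.05 and 6.64 on day 0, 5.83 and 5.89 on day 1, 6.13 and 6.10 on day 3, 6.31 and 6.17 on day 5, 6.50 and 6.26 on day 7, 6.45 and 6.47 on day 10, and 6.57 and 6.64 on day 14. It was among the 25% of genes with the lowest mean signal. All arrays of days 1 to 10 lay below both of day 0. It fell by 0.98 on day 1 (-0.98 ± 0.12, 1.98-fold, adjusted p = 2.5e-05), and its differences on days 3, 5, 7 and 10 were -0.73, -0.60, -0.47 and -0.39, each ± 0.12 and each called lower. On day 14 it was not called (-0.24 ± 0.12, adjusted p = 0.107). Without the left pool of day 0, the higher of that day's arrays, the calls of day 7 (-0.26, adjusted p = 0.0591) and day 10 (-0.18, adjusted p = 0.175) ended, and without the right one Omd was also called lower on day 14 (-0.45, adjusted p = 0.00682). The call of day 7 ended also without the right pool of that day (-0.34, adjusted p = 0.0565), and that of day 10 without the left (-0.38, adjusted p = 0.0642) or the right pool of that day (-0.40, adjusted p = 0.05). After quantile normalization Omd was not called on day 7 (-0.28, adjusted p = 0.0988) or day 10 (-0.23, adjusted p = 0.171), and with array medians made equal it was called lower on day 14 (-0.36, adjusted p = 0.015).

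Osteoglycin, also called mimecan, binds collagen and influences fibril thickness. Ogn gave 10.63 and 10.36 on day 0, 8.76 and 8.81 on day 1, 10.79 and 10.85 on day 3, 11.51 and 11.56 on day 5, 11.97 and 11.94 on day 7, 12.14 and 12.30 on day 10, and 11.94 and 12.22 on day 14. It fell on day 1 (-1.71 ± 0.11, 3.27-fold, adjusted p = 1.0e-07), and from day 3 on its arrays lay above both of day 0. It was 1.04 ± 0.11 higher on day 5 (adjusted p = 3.5e-06) and 1.72 ± 0.11 higher on day 10 (3.31-fold, adjusted p = 5.5e-08). The call of day 3 (0.33 ± 0.11, adjusted p = 0.0231) ended without either pool of that day (adjusted p = 0.0576 without the left and 0.105 without the right), without the right pool of day 0 (0.19, adjusted p = 0.225) and with array medians made equal (0.23, adjusted p = 0.0769).

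Podocan, named for its finding in the kidney's podocytes, has been described as a brake on smooth muscle cell growth. Podn gave 9.93 and 9.76 on day 0, 8.56 and 8.68 on day 1, 9.82 and 9.75 on day 3, 10.43 and 10.11 on day 5, 10.30 and 10.12 on day 7, 10.53 and 10.32 on day 10, and 10.74 and 10.46 on day 14. It fell on day 1 (-1.23 ± 0.13, adjusted p = 6.5e-06) and lay close to day 0 on day 3. It rose by 0.58 ± 0.13 on day 10 (adjusted p = 0.00203) and by 0.76 ± 0.13 on day 14 (1.69-fold, adjusted p = 3.7e-04). The rises on day 5 (0.42, adjusted p = 0.0132) and day 7 (0.36, adjusted p = 0.027) lost their calls without the right pool of day 0 (0.34 and 0.28, adjusted p = 0.0943 and 0.158) or without the left pool of the day itself (0.26 and 0.27, adjusted p = 0.149 and 0.171). The rise on day 7 was also not called after quantile normalization (0.24, adjusted p = 0.134) or with array medians made equal (0.22, adjusted p = 0.123).

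**Figure D2:**
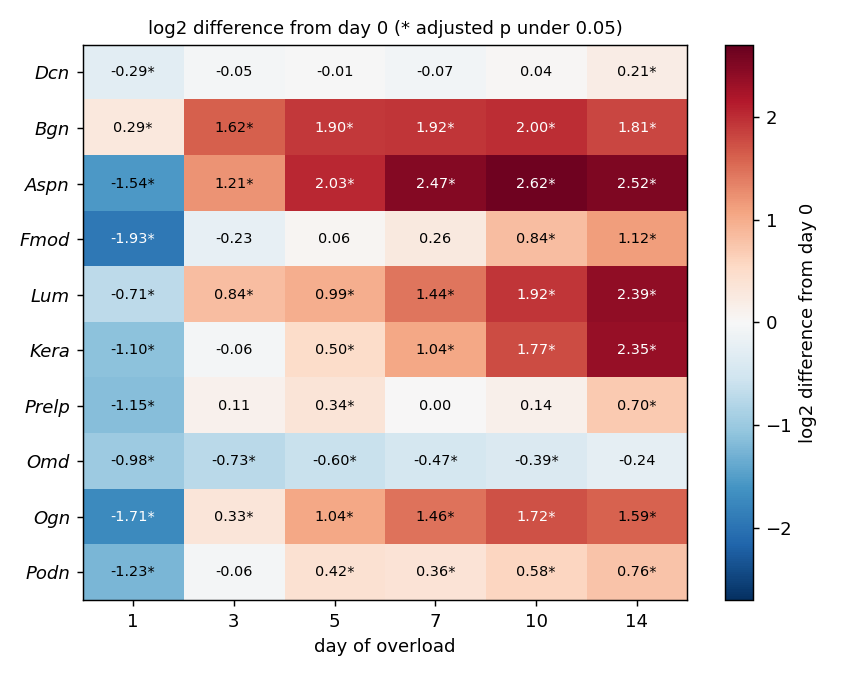
Log2 difference from day 0 for each gene (rows) and day of overload (columns), with the value printed in each cell, colour running from blue (lower than day 0) to red (higher), and a star where adjusted p was under 0.05. Of the 10 genes, 9 were lower on day 1, and 9 were higher on day 14.

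Counted by day, 4 of the 10 genes were called higher than day 0 on day 3, 7 on day 5, 6 on day 7, 7 on day 10 and 9 on day 14. Over all genes 24.1%, 26.4%, 26.6%, 25.9% and 22.9% were called higher on these days, and on day 14 0 members and 30.5% of all genes were called lower. The only member called lower after day 1 was Omd, on days 3, 5, 7 and 10, when 26.6%, 33.7%, 36.3% and 34.3% of all genes were called lower. The median difference of the 10 was -1.12 on day 1, 0.03 on day 3, 0.46 on day 5, 0.70 on day 7, 1.28 on day 10 and 1.35 on day 14, while the median over all genes lay between -0.141 and 0.044. These comparisons share the arrays of day 0. Making array medians equal shifted the median of all genes by up to 0.144. With medians made equal, the day 14 rises of Bgn, Lum, Fmod, Ogn, Kera, Aspn, Prelp and Podn were still called. That of Dcn was not (0.09, limma adjusted p = 0.31).

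Most of the recovery fell between days 1 and 3. In that interval 9 of the 10 genes rose (19.5% of all genes were called higher), by between 0.24 ± 0.08 for Dcn and 2.76 ± 0.12 for Aspn. The call of Dcn ended in 4 of 22 alternatives, with adjusted p up to 0.172 without the left pool of day 1. Ogn rose by 2.04 ± 0.11, Fmod by 1.7 ± 0.14, Lum by 1.56 ± 0.13, Bgn by 1.33 ± 0.09, Prelp by 1.26 ± 0.12, Podn by 1.17 ± 0.13 and Kera by 1.04 ± 0.15. Omd was the gene not called (0.25 ± 0.12, adjusted p = 0.108). Between days 3 and 5, Aspn (0.82 ± 0.12, adjusted p = 0.00157), Ogn (0.71 ± 0.11, adjusted p = 0.00186), Kera (0.56 ± 0.15, adjusted p = 0.0404) and Podn (0.48 ± 0.13, adjusted p = 0.0456) rose, against 4.68% of all genes. None of the 10 was called lower in that interval, as were 1.9% of all genes. The calls of Aspn and Ogn held with each array left out, while the call of Kera ended in 11 and that of Podn in 10 of 22 alternatives, among them the loss of either pool of day 3 (Kera adjusted p = 0.158 and 0.165, Podn 0.14 and 0.209) and of the left pool of day 5 (Kera 0.169, Podn 0.289).

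Later steps were smaller. Between days 5 and 7 none of the 10 genes was called by limma (0.401% of all genes were called higher and 0.627% lower), although the unadjusted p was under 0.05 for Lum, Ogn, Kera and Aspn, which lay higher, and for Prelp, which lay lower. Between days 7 and 10 Kera rose (0.73 ± 0.15, adjusted p = 0.0316, 0.933% of all genes), a call that ended without either pool of day 3, 7 or 10, with adjusted p up to 0.301. Between days 10 and 14 Kera (0.58 ± 0.15, adjusted p = 0.0314), Lum (0.48 ± 0.13, adjusted p = 0.0357) and Prelp (0.56 ± 0.12, adjusted p = 0.0162) rose, against 3.79% of all genes, and 0 were lower, against 5.11%. Without the left pool of day 14 or the right pool of day 10 none of these 3 steps was called, and without the other array of either day only that of Prelp was.

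Day 14 was also set against the mean of days 7 and 10, which asks whether a gene was levelling off. Kera was higher on day 14 by 0.94 ± 0.13 (95% interval 0.67 to 1.22, adjusted p = 5.1e-04), Lum by 0.72 ± 0.11 (adjusted p = 0.00103), Prelp by 0.63 ± 0.10 (adjusted p = 0.00178), Fmod by 0.57 ± 0.12 (adjusted p = 0.00767) and Dcn by 0.22 ± 0.07 (adjusted p = 0.043). These are 5 of 10, while 8.37% of all genes were called higher and 10.3% lower in this comparison. Apart from Dcn they all belong to the class of fibromodulin and lumican, of which Omd was the member not called. Bgn (-0.15, interval -0.32 to 0.01), Aspn (-0.02, interval -0.25 to 0.20) and Ogn (-0.01, interval -0.21 to 0.20) were not called, and their intervals lay wholly below that of Kera. Podn (0.29, adjusted p = 0.0994) was not called either, nor was Omd (0.18, adjusted p = 0.268). The difference between genes was not itself tested. Without the right pool of day 14 the call of Fmod ended (0.46, adjusted p = 0.0859), and that of Dcn ended in 12 of 22 alternatives, among them the loss of either pool of day 14 (adjusted p = 0.141 without the left and 0.201 without the right).

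**Figure D3:**
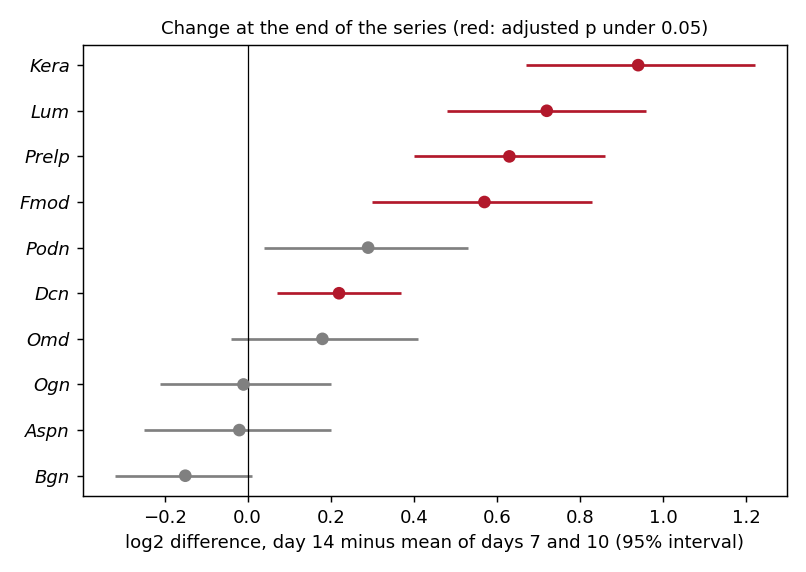
Log2 difference between day 14 and the mean of days 7 and 10 (horizontal axis) for each gene, as a point with its 95% interval from limma; red marks an adjusted p under 0.05. Kera, Lum, Prelp and Fmod lie to the right at 0.57 to 0.94, and Bgn, Aspn and Ogn lie at -0.15 to -0.01.

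Several members sit side by side in the mouse genome. In the RefSeq table of assembly GRCm38.p6, Aspn, Omd and Ogn follow one another with Ecm2 before them, Dcn, Lum and Kera follow one another with Epyc after them, and Prelp and Fmod are adjacent with Optc before them. Neighbours differed in their values. On day 10 Aspn and Ogn stood at 2.62 and 1.72 above day 0 and Omd between them at -0.39, and Dcn stood at 0.04 beside Lum at 1.92 and Kera at 1.77. The 250 bases before the start of 3 neighbours are shown because Omd moved apart from Aspn and Ogn. Aspn and Ogn themselves moved alike (Pearson r = 0.985 over 14 arrays). The same stretch of Bgn is shown because it was the member not lower on day 1. They are taken from RefSeq (GRCm38.p6, all on the + strand), at chr13:49544193-49544442 for Aspn, chr13:49582212-49582461 for Omd, chr13:49607765-49608014 for Ogn and chrX:73483351-73483600 for Bgn. Capitals mark matches to the letters of any of 6 motifs on either strand, which are the TATA box (TATAAA), the E-box that basic helix-loop-helix factors bind (CANNTG), the motif bound by the AP-1 factors (TGANTCA), the motif bound by the SMAD factors (CAGACA), the motif bound by the TEAD factors (GGAATG) and the GC box bound by SP1 (GGGCGG).
Aspn: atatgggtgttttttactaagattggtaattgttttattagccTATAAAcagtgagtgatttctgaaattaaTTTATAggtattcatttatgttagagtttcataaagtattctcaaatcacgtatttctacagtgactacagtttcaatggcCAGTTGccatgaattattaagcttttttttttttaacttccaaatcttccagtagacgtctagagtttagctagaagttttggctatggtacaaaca
Omd: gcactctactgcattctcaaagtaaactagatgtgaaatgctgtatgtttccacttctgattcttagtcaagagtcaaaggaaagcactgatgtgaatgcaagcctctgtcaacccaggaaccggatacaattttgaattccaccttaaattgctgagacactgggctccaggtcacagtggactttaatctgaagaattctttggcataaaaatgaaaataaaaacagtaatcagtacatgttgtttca
Ogn: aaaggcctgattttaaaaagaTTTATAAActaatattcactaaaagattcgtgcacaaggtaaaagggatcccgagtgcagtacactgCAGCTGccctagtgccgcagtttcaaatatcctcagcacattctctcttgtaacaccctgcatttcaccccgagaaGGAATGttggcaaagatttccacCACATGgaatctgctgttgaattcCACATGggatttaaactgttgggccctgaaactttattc
Bgn: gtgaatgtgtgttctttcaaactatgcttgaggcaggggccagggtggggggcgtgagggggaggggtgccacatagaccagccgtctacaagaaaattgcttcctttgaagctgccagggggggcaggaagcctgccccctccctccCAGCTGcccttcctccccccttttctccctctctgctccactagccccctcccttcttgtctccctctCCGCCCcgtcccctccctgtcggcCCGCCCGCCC

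The promoters of Aspn and Ogn each held 2 matches to the TATA box, which in Ogn overlap, and of the 8 members with a window Ogn was the 1 with a TEAD motif. The window of Omd held none of the 6 motifs, and neither did those of Kera and Prelp, which are not shown. Kera and Prelp were called higher than day 0 on day 14 (2.35 and 0.70), and Omd was not called (-0.24). Bgn held 3 matches to the GC box, 2 of them overlapping, close to its start. Windows were at hand for 8 members, all but Dcn and Lum, and of these 5 held an E-box, 2 a TATA box, 2 a GC box, 1 a TEAD motif and 0 an AP-1 or SMAD motif. Of all 32851 windows of the same length, 66.2% held an E-box, 12.4% a TATA box, 32.7% a GC box, 12.6% a TEAD, 6.75% an AP-1 and 17.1% a SMAD motif. A match describes letters and is not shown to be a binding site.

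The 2 arrays of day 0, on which every difference from day 0 rests, were not alike for these genes. The left pool stood above the right in 9 of the 10 genes, with a median gap of 0.30 and the widest in Fmod (0.58) and Kera (8.64 on the left and 8.14 on the right), and 7 of the 10 had a gap over 0.2, against 12.4% of all genes. Tendon cell markers had the same tilt, with 4 of 5 higher on the left by a median of 0.51, and so did Chad (11.37 on the left and 10.39 on the right), a leucine-rich protein of cartilage and tendon. Macrophage (4 of 4, median 0.47) and adipocyte markers (4 of 4, median 0.33) were likewise higher on the left of day 0. The part of these cells in the members' values was not tested. Over all days, no member differed between right and left pools (limma with day as a block, adjusted p from 0.338 for Prelp), and 0% of all genes did, while the unadjusted p was under 0.05 for 2 members, Prelp and Podn, both lower on the right.

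Markers of the cells that make these proteoglycans moved over the same days. The summed signal of 5 tendon markers, on the linear scale, was 6460 and 4550 on the left and right arrays of day 0, 8810 and 7470 on day 1, and 22200 and 23100 on day 14. Of these 5, Tnmd, which encodes tenomodulin, was at -1.62 ± 0.16 on day 1 and 3.23 ± 0.16 on day 14 (adjusted p = 1.4e-08), and 3 of 5 fell on day 1 and 5 of 5 rose on day 14. Thbs4, which encodes thrombospondin 4, rose on day 1 (0.99 ± 0.15, adjusted p = 1.6e-04). Thbs4 had the highest signal of the 5 on every array, at 12.01 and 11.41 on day 0 and 12.86 and 12.55 on day 1. It thus weighed most in the linear sum, which rose on day 1 although 3 of 5 markers fell. The summed signal of 5 fibroblast and fibro-adipogenic progenitor markers was 6940 and 6260 on day 0, 5130 and 4940 on day 1, and 13900 and 12600 on day 14. Cd34 had the highest signal of these 5 on every array and so weighed most in this sum. Of these 5, 4 fell on day 1 and Pdgfra, the receptor that marks these progenitors, rose (0.63 ± 0.10, adjusted p = 3.0e-04). On day 14, 4 of the 5 rose, Pi16 by 1.48 ± 0.23 (adjusted p = 1.7e-04).

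The sum of 6 muscle fibre markers, led by Acta1 and Ckm with signals of 13.35 to 14.44, was 99900 and 102000 on day 0, 86400 and 84000 on day 1, and 89700 and 93400 on day 14. Of 7 cartilage and bone markers, 1 rose and 0 fell on day 1, and 2 rose and 2 fell on day 14. Acan, the large cartilage proteoglycan aggrecan, rose on day 14 by 2.76 ± 0.20 (adjusted p = 4.0e-07), while Col2a1, the collagen of cartilage, lay at -0.04 on day 14. The sum of 4 macrophage markers was 2300 and 1650 on day 0, 6500 and 6380 on day 1, 14400 and 13800 on day 3, and 7010 and 7520 on day 14. Of 4 adipocyte markers, 4 fell on day 1, and 4 were higher on day 14 than on days 7 and 10, by a median of 0.66. In that late comparison 2 of 5 fibroblast markers were higher, and 2 of 5 tendon markers were higher and 1 lower. In the same comparison 4 of 6 muscle fibre markers were higher (median 0.30), 3 of 4 macrophage markers were lower (median -0.46), and 2 of 4 smooth muscle and pericyte markers were higher and 2 lower. Against day 0, 3 of the 4 smooth muscle and pericyte markers fell on day 1. On days 5, 7 and 10, 2 rose and 2 fell, and on day 14, 2 rose and 0 fell. Myh11 and Rgs5 were lower on day 1 (-1.42 and -1.41) and on day 10 (-1.01 and -0.35), and Pdgfrb was 1.35 higher on day 10. Of 4 endothelial markers, 1 rose and 1 fell on day 1, and all 4 rose on days 5, 7, 10 and 14, with medians of 0.77, 0.58, 0.48 and 0.53. How much of the members' change went with a change in the number of these cells was not tested.

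Of 7 other measured genes of the family, 2 were lower on day 1, Ecm2 (-2.44 ± 0.12, adjusted p = 1.6e-08), which lies next to Aspn, and Chad (-2.34 ± 0.26, adjusted p = 1.2e-05). Ecm2 gave 7.12 and 7.28 on day 1, against 9.80 and 9.49 on day 0, and rose by 1.01 ± 0.12 on day 14 (adjusted p = 2.5e-05). On day 3 Ecm2 (-1.25 ± 0.12, adjusted p = 2.6e-06) and Chad (-1.03 ± 0.26, adjusted p = 0.00555) were still lower. Chad was also lower on days 5 and 7 (-1.53 and -1.14, each ± 0.26) and lay at -0.10 on day 14, when it was not called. Podnl1, the podocan-like gene, rose by 1.33 ± 0.10 on day 10 (adjusted p = 2.3e-07) and, like Ecm2, was called higher on day 14 (0.62 ± 0.10, adjusted p = 2.3e-04). Chadl went the other way and was called lower on days 3, 5, 7, 10 and 14 (-0.35 ± 0.09 on day 14, adjusted p = 0.00624).

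Of 16 enzymes that build chondroitin and dermatan sulfate chains, 8 rose and 1 fell on day 1, 13 rose and 1 fell on days 5, 7 and 10, and 11 rose and 2 fell on day 14, with medians of 0.25 on day 1 and 1.16 on day 10. Csgalnact1, which starts chondroitin chains, rose by 2.22 ± 0.11 on day 5 (adjusted p = 6.3e-09). Dse, the epimerase that turns chondroitin into dermatan sulfate, rose by 2.10 ± 0.11 on day 5 (adjusted p = 9.7e-09), and Chsy1, a chondroitin synthase, by 2.06 ± 0.10 on day 10 (adjusted p = 7.6e-09). Of 7 genes of the linker that joins chain and protein, 4 rose and 2 fell on day 1, and 5 rose and 1 fell on each later day. Xylt1, the xylosyltransferase that adds the first sugar, rose by 1.52 ± 0.07 on day 1 (adjusted p = 1.3e-08), the day on which 9 of the core protein genes fell, and its partner Xylt2 fell on that day (-0.25 ± 0.07, adjusted p = 0.0155). Of 8 keratan sulfate enzymes, 4 rose and 1 fell on day 1, and 5 rose and 0 to 1 fell on each later day, with Chst2, a sulfotransferase, at 1.77 ± 0.12 on day 7 (adjusted p = 8.3e-08) and B4galt1 at 1.10 ± 0.09 on day 5 (adjusted p = 3.1e-07).

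Collagens are the partners of these proteins in the fibril. Of 12 collagen genes, 4 fell and 2 rose on day 1, with a median of -0.12 against -1.12 for the 10 proteoglycan genes, and the difference between the lists was not tested. From day 5 on all 12 rose, with medians of 2.35, 2.53, 2.85 and 2.84 on days 5, 7, 10 and 14. Col12a1, a collagen of the fibril surface, rose by 3.95 ± 0.20 on day 10 (adjusted p = 1.0e-08) and Col1a1, the main chain of collagen I, by 3.29 ± 0.08 (adjusted p = 1.1e-10). Col3a1 rose by 3.25 ± 0.08 on day 14 (adjusted p = 1.4e-10).

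**Figure D4:**
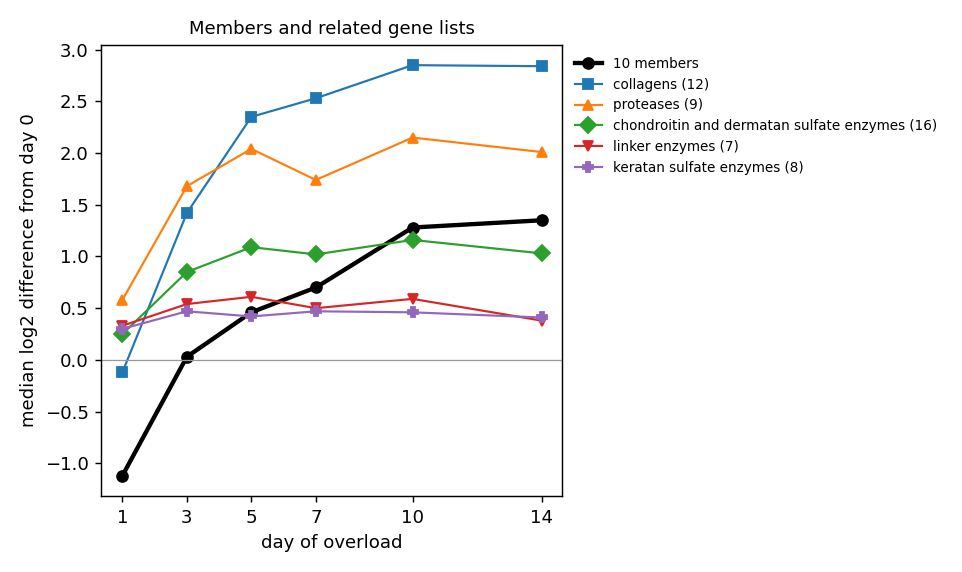
Median log2 difference from day 0 (vertical axis) against day of overload for the 10 proteoglycan genes (black) and 5 related gene lists, with the number of measured genes in brackets. The 10 genes had a median of -1.12 on day 1 and 1.35 on day 14, and the collagens -0.12 and 2.84.

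Of 9 proteases that process or cleave these proteins, 5 rose and 1 fell on day 1, all 9 rose on days 3 and 5, and 8 rose and Mmp9 fell on day 14. Mmp3, which encodes stromelysin, rose by 3.80 ± 0.17 on day 1 (adjusted p = 6.9e-09), Mmp14, a membrane-bound protease, by 3.21 ± 0.09 on day 10 (adjusted p = 1.6e-10) and Mmp13, a collagenase, by 3.19 ± 0.33 (adjusted p = 3.7e-06). Mmp13 was also among the genes with a gap on day 0, at 8.82 on the left and 7.95 on the right. Of 14 ligands and receptors bound by decorin or biglycan, 8 rose and 5 fell on day 1 (22.3% and 22.6% of all genes). On day 14, 7 rose and 4 fell (22.9% and 30.5% of all genes). Mstn, the muscle growth inhibitor myostatin, which decorin binds, fell by 3.12 on day 3 (-3.12 ± 0.15, adjusted p = 7.8e-09). Tlr4, a receptor for soluble biglycan, rose by 2.05 ± 0.10 on day 1 (adjusted p = 1.4e-08), and Tgfb1 rose by 1.93 ± 0.12 on day 5 (adjusted p = 3.4e-08).

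Across the 14 arrays the members correlated with each other at a Pearson r between -0.025 for Bgn with Omd and 0.985 for Ogn with Aspn, with a median of 0.844 over 45 pairs. Lum and Kera correlated at 0.958 and Fmod and Podn at 0.961. These arrays fall into 7 days and share the dip of day 1, so the values describe likeness only. Among all other genes, those most like the mean of the 10 members were Plxdc2 (r = 0.993), Timp2 (0.992), an inhibitor of metalloproteinases, Dpt (0.991), which encodes the decorin-binding matrix protein dermatopontin, Fndc1 (0.989), Kctd12b (0.989), Fap (0.988), the fibroblast activation protein, Prrg1 (0.987), Scara3 (0.985), Fbln1 (0.985), which encodes fibulin 1, and Cilp (0.984). Dpt was at -1.42 on day 1 and 1.61 on day 14.

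Single members had different nearest genes. For Dcn these were P3h2, Lrp6 and Btbd3 (r = 0.934, 0.933 and 0.924), and for Bgn Adcy7, Gpr153 and Srpx2 (0.997, 0.996 and 0.996). For Aspn they were Serpinf1, Map3k12 and Marveld1 (0.996, 0.994 and 0.994), and for Ogn Wls, Casq2 and Ttyh2 (0.994, 0.993 and 0.993). Lum was most like Spon1, Sh3d19 and Fap (0.988, 0.988 and 0.986), Kera like Dhrs7, Olfml1 and Naaladl2 (0.989, 0.987 and 0.983), and Fmod like Smpd2, Tspan12 and Kctd12b (0.987, 0.979 and 0.973). Podn was most like Agmo, Kctd12b and Ebf2 (0.981, 0.980 and 0.977), Prelp like Slco2b1, P2ry14 and AW112010 (0.959, 0.945 and 0.943), and Omd like Ogfod3, Slc25a35 and Isca2 (0.973, 0.959 and 0.958). Bgn and Srpx2 were both higher on day 14, at 1.81 and 2.65 above day 0.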

How the data were processed

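The authors deposited log2 signals per probe set, with nearly equal array medians (7.91 to 7.97). Partek is named in the submitters' processing notes, with neither a version nor the method of normalization. The design text gives 100 ng and the labelling protocol 250 ng of RNA, and which applied is not known. Of 35557 probe sets, 21789 had 1 gene symbol in the platform annotation, and the probe set of highest mean stood for each of 19938 genes. Over these genes the array medians lay between 8.25 and 8.42. Where array medians were made equal, it was these medians, not those over all probe sets. Models were fitted with limma 3.58.1 in R 4.3.3 to all 14 arrays with day as group (7 residual degrees of freedom, prior 4.95) and Benjamini-Hochberg adjustment over all genes. Across genes, both arrays of 1 day had a Pearson r of 0.994 to 0.997. Precision is limited by having 2 arrays a day. Arrays carry no counts, so no depth is given.

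The members, the gene lists and the tests were chosen with earlier results of these data known. Named from each list were up to 3 genes with the largest called difference from day 0 on any day, and genes most alike were ranked by Pearson r over 14 arrays, without predicted genes and small RNAs. Named outside this rule, after their values were seen, are Col2a1, Acta1, Ckm, Mmp9, Cd34 and Chadl. Counts of a list are over its genes measured by a probe set of 1 symbol, and Tsku, Ly6a and Bglap were not among them. They stand against the shares of all genes called on the same day, given with the counts of the members. Every fit was repeated after quantile normalization, with array medians made equal, without the lowest 25% of genes, with a gene's probe sets averaged or all kept, with a trended and robust variance, with weighted arrays, with side as a blocking factor, on just the 4 arrays of a comparison, at adjusted p under 0.01, at 2-fold or more, and with each array left out.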

Additional observations from a re-analysis of the deposited data

Results flagged for a closer look

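In 5 of 60 comparisons of a member and a day with day 0, the left and right pools moved in opposite directions, and none of the 5 was called by limma. Fmod on day 3 changed by -0.55 on the left and 0.10 on the right, a difference of 0.65. Fmod on day 5 changed by -0.23 and 0.34, a difference of 0.57. Kera on day 3 changed by -0.31 and 0.19, a difference of 0.49. Prelp on day 7 changed by -0.09 and 0.08, a difference of 0.17, and Dcn on day 3 by -0.11 and 0.01, a difference of 0.12. These differences between sides were not tested, since each side has 1 pool a day.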

How the results depend on the processing

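No call of a member turned its direction in any alternative, while differences not called either way changed sign in 62 instances. Counts of called members moved by over 1.5 times in these settings. After quantile normalization 0 genes were lower on days 7 and 10, against 1. With equal array medians 2 were lower on day 7 and 1 on day 14. Leaving out the lowest 25% of genes removed Omd, so 0 were lower on days 3, 5, 7 and 10, and 3 changed between days 7 and 10. An intensity trend and array weights each gave 1 called between days 5 and 7 and 3 between days 7 and 10. With only the 4 arrays compared 0 were higher on day 1 and 0 lower on day 10. At adjusted p under 0.01, 0 were higher on day 1, 4 higher on day 5 and 0 lower on day 10, and 2, 0 and 0 changed from day 3 to 5, 7 to 10 and 10 to 14. At least 2-fold were 0 higher on day 1, 2 on day 3 and 3 on day 5, 0 lower on days 3, 5, 7 and 10, 0 changed from day 3 to 5, 7 to 10 and 10 to 14, and 0 on day 14 against days 7 and 10.

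With each array left out in turn, the members called higher numbered 0 to 1 on day 1, 3 to 4 on day 3, 4 to 8 on day 5, 5 to 7 on day 7, 7 on day 10 and 8 to 9 on day 14. Those lower numbered 8 to 9 on day 1, 1 to 2 on day 3, 1 on day 5, and 0 to 1 on each of days 7, 10 and 14. Called steps numbered 8 to 10, 2 to 5, 0 to 2, 0 to 2 and 0 to 3 over the 5 successive intervals, and 3 to 5 on day 14 against days 7 and 10. All 10 stayed called over all days, and 0 between sides. With the side as a replicate block, Podn was also higher on day 14 than on days 7 and 10 (0.29, adjusted p = 0.0395), and no count moved by over 1.5 times. Sides of different days are different animals, and right minus left correlated between days at r from -0.19 to 0.35 across genes, over 0.1 in 6 of 21 pairs of days, so the side is no pairing. Where no cause is named, the cause was not tested. With 2 arrays a day and no detection call, low signals such as that of Omd are the least certain. Whether the highest signals, such as those of Dcn and of Bgn from day 3 on, follow RNA in full was not tested.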
